A study of Sus scrofa with 2 samples.

Results

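The miR-130/301 and miR-148/152 families are a pair of small miRNA families whose seeds, the bases that a miRNA uses to pair with target mRNAs, share a common core. Their members were taken by name, as every porcine miRNA on the array with the number 130, 148, 152, 301 or 454. This gave 6 of the 355 probes, which were ssc-miR-130a, ssc-miR-130b and ssc-miR-301 in one family and ssc-miR-148a, ssc-miR-148b and ssc-miR-152 in the other. No ID with the number 454 was listed. Anterior pituitary RNA of Bama minipigs, a small and slow-growing Chinese breed, was compared with that of Landrace pigs, a large commercial breed, in healthy female piglets 20 days old without treatment. RNA of 3 piglets per breed was pooled, and each pool was hybridized to 1 custom array with Cy5 staining. Values are the deposited signal intensities, not logged, and all ratios are Bama minipigs over Landrace pigs. With 1 array per breed, nothing can be said of the spread between pigs or between arrays, and the breeds were not tested against each other.

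A miRNA guides the silencing complex to mRNAs that hold a match to its seed, mostly in the 3′-untranslated region, and lowers their stability and translation. The miR-148/152 family is known for repressing DNA methyltransferases such as DNMT1. The miR-130/301 family is known for repressing PPARG, the master regulator of fat cell formation, and the lipid exporter ABCA1 is a known target of both families. In vessels, miR-130a is known as a promoter of angiogenesis through the homeobox genes MEOX2 and HOXA5.

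The mature sequences that the probes were designed for show how the families are related, and are given 5′ to 3′ with the seed (bases 2 to 8) in capitals.
ssc-miR-148a: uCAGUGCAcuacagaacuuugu
ssc-miR-148b: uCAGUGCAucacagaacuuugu
ssc-miR-152: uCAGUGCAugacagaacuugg
ssc-miR-130a: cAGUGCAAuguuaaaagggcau
ssc-miR-130b: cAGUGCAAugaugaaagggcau
ssc-miR-301: cAGUCCAAuaguauugucaaagc
All 3 members of the miR-148/152 family had the seed CAGUGCA, and ssc-miR-130a and ssc-miR-130b had the seed AGUGCAA, which is the same core moved by 1 base. The matching target sites are UGCACUG and UUGCACU, which share the 6 bases UGCACU, so that the 8-base run UUGCACUG holds both. The listed sequence of ssc-miR-301 had another seed, AGUCCAA, in a sequence that could not be checked against another source here. With positions counted from 1 at the 5′ end, it differed from that of ssc-miR-130a by G5C within the seed.

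Within a seed group the members differed at few bases, all of them outside the seed. Between ssc-miR-148a and ssc-miR-148b, 20 of 22 bases were identical, and the substitutions were C9U and U10C. Between ssc-miR-148b and ssc-miR-152, 19 of the 21 bases of the shorter miRNA were identical, with C10G and U20G. Likewise, ssc-miR-130a and ssc-miR-130b shared 20 of 22 bases and differed by U11A and A13G. By contrast, ssc-miR-301 had 11 bases in common with ssc-miR-130a and 10 with ssc-miR-130b. How far a probe also bound the close relatives of its own miRNA cannot be read from the deposited values.

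**Figure D1:**
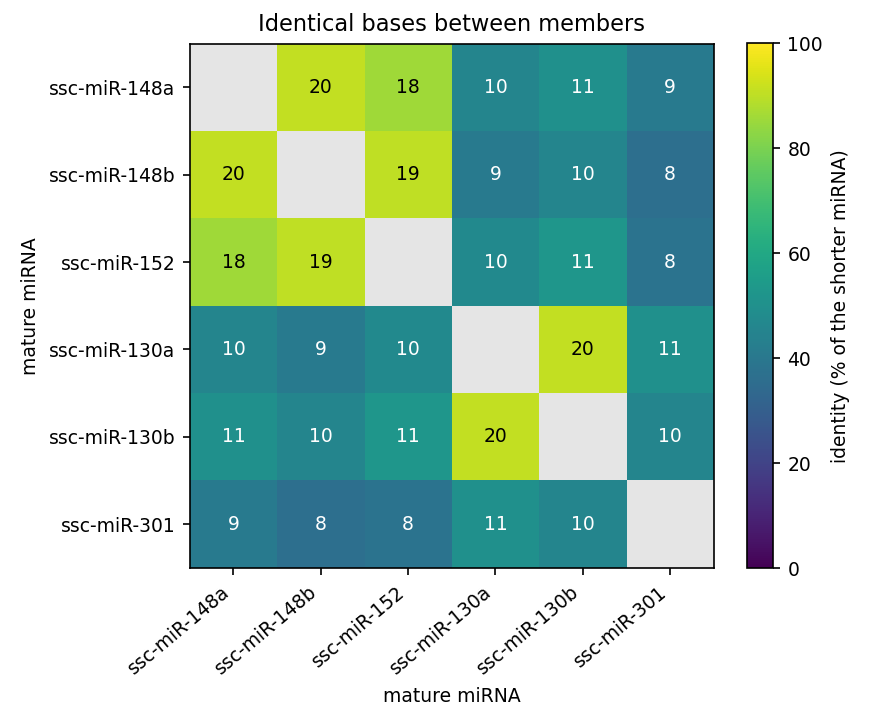
Identical bases between the mature sequences of the 6 members, for the best alignment without gaps; numbers in the cells are identical bases and colours are the share of the shorter miRNA in percent. The pairs with the same seed share 18 to 20 bases, and every pair with ssc-miR-301 shares at most 11.

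In the RefSeq annotation of Sscrofa11.1, used for names only, genes were found for 5 of the 6 miRNAs. MIR148B on chromosome 5 lies within the span of COPZ1 and MIR152 on chromosome 12 within that of COPZ2, paralogous genes that encode coatomer subunits of vesicle transport. The neighbours of the 3 miR-148/152 genes are paralogs as well. NFE2L3 is the next protein-coding gene on one side of MIR148A on chromosome 18, NFE2 of MIR148B and NFE2L1 of MIR152, all of which encode transcription factors of the NF-E2 family. MIR130A on chromosome 2 lies beside YPEL4, and MIR130B on chromosome 14 within the span of LOC100155534, between PPIL2 and SDF2L1.

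On both arrays, the labelled tissue carried its endocrine miRNAs. The signals of ssc-miR-7 and Y-90 (listed as miR-375) were the highest and the next highest in each pool. Signals of the 355 probes summed to 695596 in the Bama minipig pool and 671754 in the Landrace pool, and 185 probes had a signal of at least 100 on 1 or both arrays. Below this limit, ratios of weak signals were not used. Of the 6 listed muscle miRNAs, 5 were above the limit, and their list had sums of 1528 and 659.7. Of these 5, 3 were 2-fold or more higher and 1 lower in Bama minipigs. Over all 185 probes above the limit, 13% were 2-fold or more higher and 3.78% lower. The vessel and connective tissue list had sums of 15087 and 19026, with 1 of 5 members 2-fold or more lower in Bama minipigs. The blood list summed to 5497 and 6026, and none of its 2 members above the limit passed 2-fold. All 3 neural miRNAs and the liver miRNA ssc-miR-122 were below the limit. In pooled tissue, fewer cells of a type and less miRNA per cell cannot be told apart.

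None of the 5 members with a signal of at least 100 differed by 2-fold or more between the breeds. Of the 185 probes above the limit, 31 did (16.8%), with 24 higher (13%) and 7 lower (3.78%) in Bama minipigs. The log2 ratios of the 5 members ran from -0.43 to 0.18 with a median of -0.0095, and 4 of the 5 were below 0 (3 after cyclic loess, all 5 after median or 75th percentile scaling). Over the 185 probes the median was 0.025, the quartiles were -0.26 and 0.40, and 91 were below 0. Median and 75th percentile scaling lowered all probes alike, to medians of -0.24 and -0.17 over the 185. Counts below 0 after these scalings therefore cannot be set against the 91. With 5 members, a count of 0 past 2-fold is close to the background of 16.8% and is no result about the families.

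**Figure D2:**
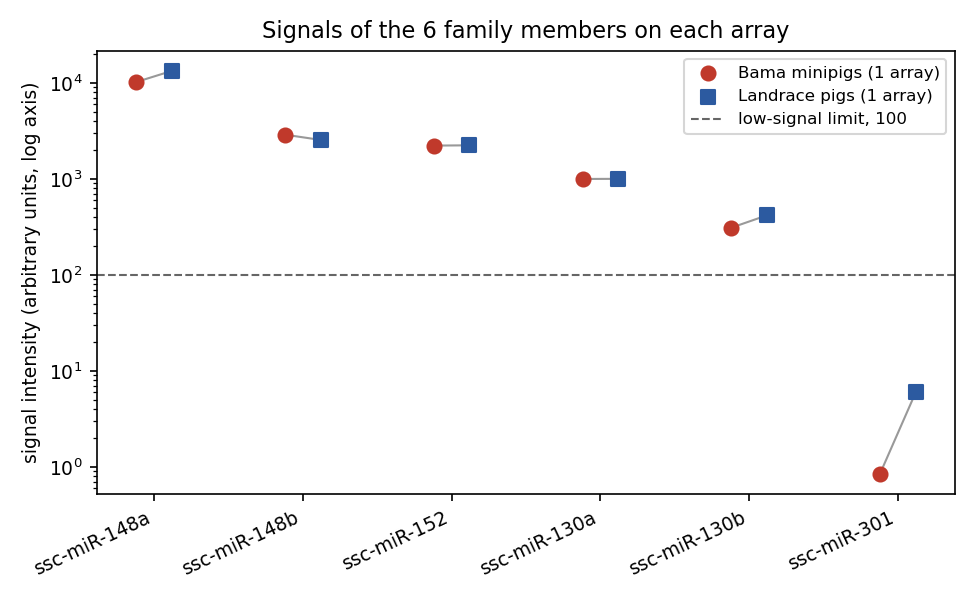
Signal intensity of each member for Bama minipigs (circles) and Landrace pigs (squares), on a log axis; each point is 1 array of 1 pool and has no error bar. The points of 5 members lie above the limit of 100 (dashed), with the higher at most 1.35 times the lower in each, whereas ssc-miR-301 lies at 0.851 and 6.002.

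ssc-miR-148a gave the brightest signal of the 6 members and the largest difference in signal units. It measured 10261 in the Bama minipig pool and 13407 in the Landrace pool, a difference of -3145 units. The signal was lower in Bama minipigs, with a log2 ratio of -0.39, or 1.31-fold higher in Landrace pigs. In the order of signals it stood at place 18 in Bama minipigs and at place 11 in Landrace pigs. It held 1.48% of the summed signal of the array for Bama minipigs and 2.00% of that for Landrace pigs. Probes bind their miRNAs with unequal strength, so places and shares describe the arrays and not molecule numbers.

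Other probes at similar signals also reached log2 ratios of this size. Over all 185 probes above the limit, 34 had a lower log2 ratio than ssc-miR-148a. Among the 20 probes with an average signal above 10000, the quartiles of the log2 ratio were -0.055 and 0.068, and none of the other 19 probes had a log2 ratio as low as that of ssc-miR-148a. The next lowest was that of ssc-miR-21, at -0.32, and the highest that of ssc-let-7a, at 0.34. Relative to the median of these 20 probes, the log2 ratio of ssc-miR-148a was -0.41. It remained the lowest of the 20 after quantile normalization and cyclic loess, where its distance from the median was -0.38 and -0.43. An offset of 50 is small beside signals of this size, and the distance with it was -0.41. Median and 75th percentile scaling shift every log2 ratio by the same amount, so they cannot change this place. This place depends on the bound of 10000, since just below it ssc-miR-99a (average signal 9263, log2 ratio -0.44) and ssc-miR-100 (average 8123, log2 ratio -0.39) were lower, and ssc-let-7c (average 9036) was at 0.52. Without replicate arrays, the place cannot be set against an error. The summed signal of the vessel and connective tissue list was also lower in Bama minipigs, with a log2 ratio of -0.33. Most of this sum came from ssc-miR-126 and ssc-miR-145, and ssc-miR-214 was higher (0.19), whereas the other members were lower. The part of this list in the difference of ssc-miR-148a was not tested.

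Its closest relatives did not show the same difference. ssc-miR-148b, which lies within COPZ1, measured 2902 in the Bama minipig pool and 2556 in the Landrace pool. It was the only member with the higher signal in Bama minipigs, at a log2 ratio of 0.18. This direction was lost after median scaling (-0.078), 75th percentile scaling (-0.010) and quantile normalization (0). The first 2 of these lower every log2 ratio alike, and the median of the 185 probes above the limit became -0.24 and -0.17. ssc-miR-148b stood at place 68 on both arrays. ssc-miR-152, which lies within COPZ2, measured 2232 and 2247. These signals were nearly equal as deposited, with a log2 ratio of -0.0095. The value was -0.27 after median scaling, -0.20 after 75th percentile scaling and -0.16 after quantile normalization. In the class of average signals above 1000 and up to 10000, ratios were compared without further scaling. Of the 84 other probes, 83 had a larger log2 ratio in size than ssc-miR-152, and 51 of 84 a larger one than ssc-miR-148b.

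Comparing members on the same pair of arrays removes any factor that multiplies a whole array. The log2 ratio of ssc-miR-148a was lower than that of ssc-miR-148b by 0.57, which is a 1.48-fold difference between their ratios. From signals, ssc-miR-148a was 3.54 times as bright as ssc-miR-148b in Bama minipigs and 5.24 times in Landrace pigs, and only the change of this quotient between arrays can be read. Median and 75th percentile scaling cannot change such a difference. The difference in log2 ratio was -0.56 with the offset, -0.49 after cyclic loess and -0.38 after quantile normalization, so that its direction held under each of these. These alternatives reuse the same arrays, so a held direction gives no measure of error. Over the 185 probes above the limit, the quartiles of the log2 ratio were -0.26 and 0.40, and how often other pairs differ by as much was not computed. Between ssc-miR-148a and ssc-miR-152 the difference was -0.38, with a range from -0.38 to -0.22. Between ssc-miR-148b and ssc-miR-152 it was 0.19, with a range from 0.16 to 0.19. The 3 miRNAs have the same seed, and their summed signal, most of which came from ssc-miR-148a, was 15395 in the Bama minipig pool and 18210 in the Landrace pool (log2 ratio -0.24). That is 2.21% and 2.71% of the summed signal of the arrays.

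**Figure D3:**
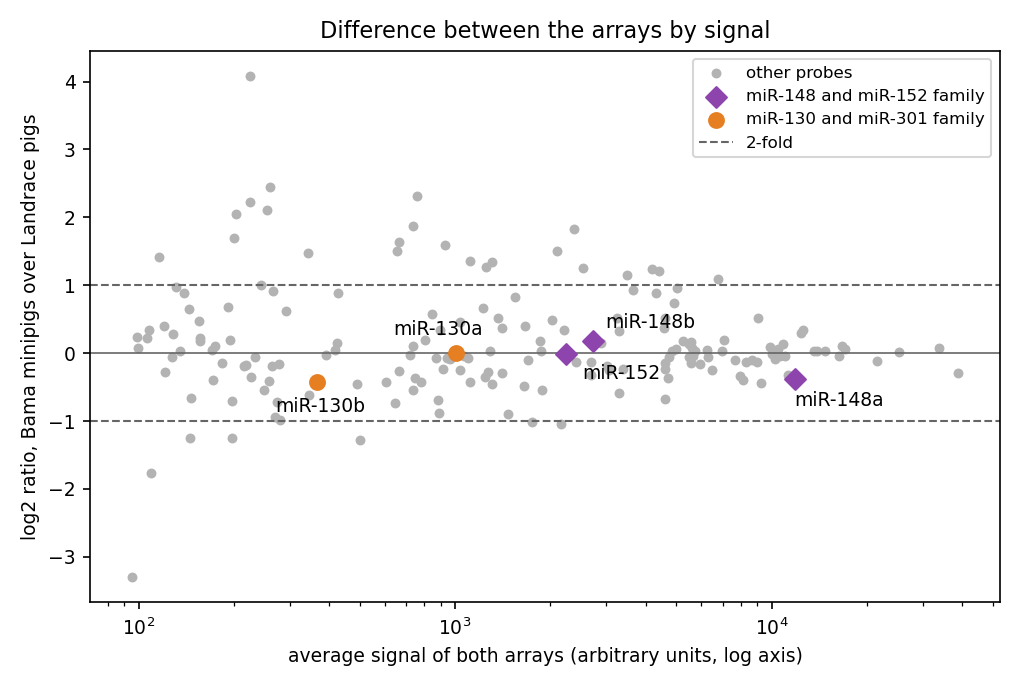
Log2 ratio of Bama minipigs over Landrace pigs against the average signal of both arrays (log axis) for the 185 probes with a signal of at least 100 on 1 or both arrays; coloured points are family members and dashed lines mark 2-fold. All 5 members plotted lie inside the dashed lines, and ssc-miR-148a, at -0.39, is the lowest of the 20 probes with an average signal above 10000. This place depends on that bound, since ssc-miR-99a (average signal 9263, log2 ratio -0.44) and ssc-miR-100 (average signal 8123) were lower just below it.

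In the miR-130/301 family, the signals of ssc-miR-130a were nearly the same in both breeds. It measured 1002 in the Bama minipig pool and 1005 in the Landrace pool, with a log2 ratio of -0.0045. All 84 other probes of its signal class had a larger log2 ratio in size, although the value was 0.11 after cyclic loess and -0.27 after median scaling. ssc-miR-130b measured 311 in the Bama minipig pool and 419 in the Landrace pool. It was lower in Bama minipigs, with a log2 ratio of -0.43, or 1.35-fold higher in Landrace pigs. Such a difference was common at that signal. Of the 76 other probes with an average signal above 100 and up to 1000, 40 had a larger log2 ratio in size and 17 a lower one.

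The log2 ratios of the pair with the seed AGUGCAA were also unequal. The log2 ratio of ssc-miR-130a exceeded that of ssc-miR-130b by 0.43, a 1.34-fold difference between their ratios, and the value ran from 0.37 with the offset to 0.52 after quantile normalization. In the signal class of ssc-miR-130b, the quartiles of the log2 ratio were -0.42 and 0.65. How often other pairs of probes differ by as much was not computed, so the gap is no result about the pair. Their summed signal was 1313 in the Bama minipig pool and 1424 in the Landrace pool, a log2 ratio of -0.12. It made up 0.189% and 0.212% of the summed signals.

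ssc-miR-301 gave almost no signal in either breed. It measured 0.851 in the Bama minipig pool and 6.002 in the Landrace pool, and 32 of the 355 probes were lower in the Bama minipig pool and 82 in the other. Both values were far below the limit of 100 that 170 probes did not reach, so no ratio is given. The probe was designed for the listed sequence with the seed AGUCCAA, which is unverified here, and whether another form of miR-301 was present in the tissue was not measured.

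**Figure D4:**
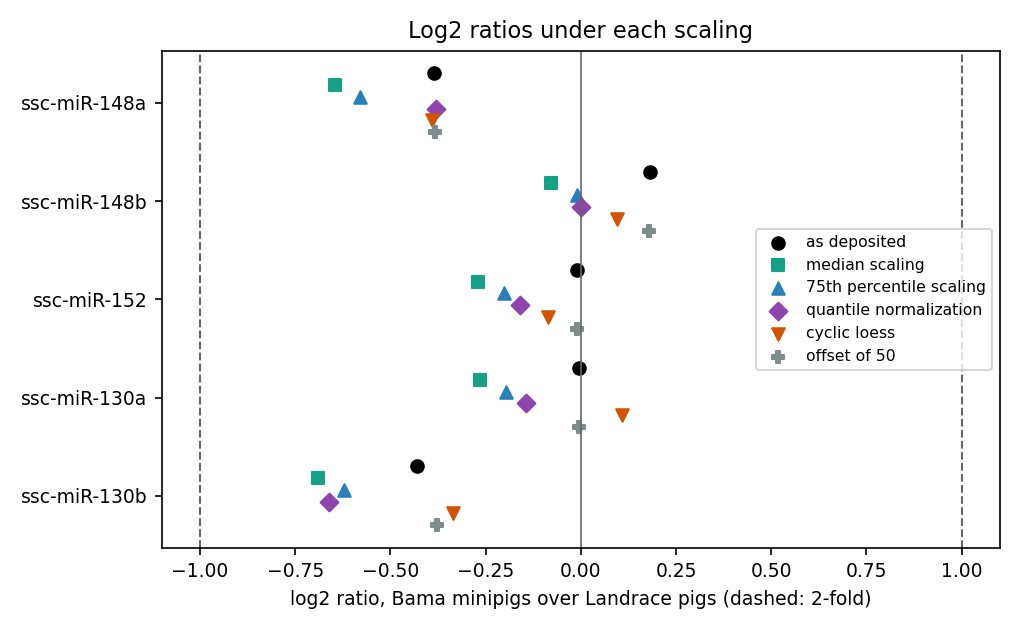
Log2 ratio of Bama minipigs over Landrace pigs for the 5 members with a signal of at least 100, as deposited and under 5 alternatives; each symbol is 1 setting and dashed lines mark 2-fold. No value passes 2-fold, the largest in size being 0.69, and ssc-miR-148a and ssc-miR-130b lie left of 0 under every setting shown.

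A few other miRNAs on the array share a run of 6 bases with a member within bases 1 to 9 of both, and are shown to compare their signals with those of the members. The seed is again in capitals.
ssc-miR-19b: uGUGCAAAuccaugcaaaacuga
ssc-miR-19a: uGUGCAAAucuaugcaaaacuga
ssc-miR-455: gCAGUCCAugggcauauacac
ssc-miR-450b-5p: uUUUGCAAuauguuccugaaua
The miR-19 miRNAs, members of the growth-promoting miR-17-92 cluster, share GUGCAA with ssc-miR-130a and ssc-miR-130b. The signal of ssc-miR-19b was 1881 in the Bama minipig pool and 743 in the Landrace pool, a log2 ratio of 1.34, in the direction opposite to that of ssc-miR-130b. It stayed past 2-fold under every scaling, from 1.08 to 1.40. ssc-miR-19a was below the limit, with 37.4 and 3.20. The seed of ssc-miR-455 shares AGUCCA with that of ssc-miR-301 as listed, and its signals were 674 and 1090 (log2 ratio -0.69). ssc-miR-450b-5p, which shares UGCAAU with the miR-130 pair, had 1.28 and 0.393.

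With 2 arrays, the pattern of a miRNA is a single ratio, so likeness was taken as the distance in log2 ratio among probes within 2-fold of the average signal. Among 32 such probes, ssc-miR-148a was nearest to ssc-miR-100 (7028 and 9217, log2 ratio -0.39) and to the endothelial miRNA ssc-miR-126 (6981 and 8857, log2 ratio -0.34). Among 40 probes, ssc-miR-130b was nearest to ssc-miR-1343 (log2 ratio -0.44) and ssc-miR-744 (-0.42). ssc-miR-148b was nearest to ssc-miR-181d-5p and ssc-miR-107, both at 0.18. The nearest probes to ssc-miR-152 were ssc-miR-181b (-0.023) and ssc-miR-106a (0.036), and those to ssc-miR-130a were ssc-miR-339-5p (-0.023) and ssc-miR-185 (-0.043).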

How the data were processed

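Signals came from 1 custom µParaflo array per breed, each hybridized with a pool of 3 anterior pituitaries. The deposited intensity values are on a linear scale, after the authors subtracted the background, normalized by LOWESS and took the mean over repeated spots. They hold no spot or background data, so no detection calls and no spread between spots were used. Log2 ratios were computed from the deposited signals with no further scaling, for probes with a signal of at least 100 on 1 or both arrays. Precision is limited by having 1 array per breed, and no p-value was computed.

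The miRNAs named were the members, probes sharing a run of 6 bases with a member within bases 1 to 9, the 2 probes nearest in log2 ratio to each member within 2-fold of its average signal, and lists of endocrine, muscle, blood, vessel and connective tissue, neural and liver miRNAs; ssc-miR-21, ssc-let-7a, ssc-let-7c and ssc-miR-99a were named after their values were seen. Members and lists were chosen with earlier results of these data known. Mature sequences of all 355 probes were taken from the study's supplementary list of the probes. Alternatives were median and 75th percentile scaling, cyclic loess (3 iterations) and quantile normalization, both from limma 3.58.1 in R 4.3.3, an offset of 50, a limit of 500 and no limit. On a simulated Bama over Landrace pair of 355 probes, the unscaled ratios recovered 20 of 20 changed probes, quantile normalization 19 (with 1 unchanged probe called) and the offset 18. These counts describe simulated signals with changes set in advance, and only check that the computation ran as intended. They give no measure of error for the real arrays, for weak signals or for differences below 2-fold such as those of the members. Python 3.11.15, numpy 2.4.6, pandas 2.3.3 and matplotlib 3.10.9 were used.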

Additional observations from a re-analysis of the deposited data

How the results depend on the processing

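No paired analysis was possible because each breed has 1 array, and leaving out an array was not possible for the same reason. A value was taken as unchanged within 0.1 on the log2 scale. The median log2 ratio of the members, -0.0095, was -0.27 after median scaling, -0.20 after 75th percentile scaling, -0.16 after quantile normalization and -0.20 with no limit on low signals. The other alternatives (loess, the offset, a limit of 500) left it within 0.1. The number of members past 2-fold was 0 under each alternative except with no limit, where ssc-miR-301 made it 1. For the summed signal of ssc-miR-130a and ssc-miR-130b, the log2 ratio of -0.12 became -0.38, -0.31 and -0.29 after median scaling, 75th percentile scaling and quantile normalization. For ssc-miR-148a, ssc-miR-148b and ssc-miR-152 together, -0.24 became -0.50 after median scaling and -0.44 after 75th percentile scaling, and stayed within 0.1 after quantile normalization. Median scaling lowered every log2 ratio by 0.26 and 75th percentile scaling by 0.19, and the median of the 185 probes became -0.24 and -0.17. Of the 25 single ratios recomputed for the 5 members, 15 moved by over 0.1. The sign turned for ssc-miR-148b under both scalings (it was 0 after quantile normalization), and for ssc-miR-130a under loess.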
